A study of Mus musculus with 20 samples.

Results

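This comparison asked what remained different in adipocytes after a short period of obesity had been followed by weight loss (WL). Epididymal adipose tissue (epiAT) of 3 HC mice, which had 12 weeks of high-fat diet (HFD) and then 8 weeks of chow, was set against that of 3 CC_s mice, which stayed on chow throughout, and all of these mice were 26 weeks old. The mice of the comparison were picked by the diet groups in their labels, and it holds 6 of the 20 libraries of the series. All mice, controls included, were AdipoERCre x NuTRAP animals on the background spelled C576BL6 in the labels, and carried a Cre that tamoxifen switches on under an adipocyte promoter. Tamoxifen given to the young mice started the making of a ribosomal protein with a GFP tag in adipocytes, and a washout period preceded the diets. The HFD was matched by a low-fat chow. In the WL period both groups ate the same standard chow. Each library came from 1 mouse. As a reference for the obese state, 3 H mice (12 weeks of HFD, 18 weeks old) and their 3 chow controls, C, were used, and these share no mouse with HC and CC_s.

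Translating ribosome affinity purification (TRAP) pulls the tagged ribosomes, with the mRNA on them, out of a lysate of the whole fat pad. The result is a view of the adipocyte translatome, and it depends on how little RNA of other cells is carried along. White adipocytes store triglyceride, which they build from fatty acids taken up from the blood or made by de novo lipogenesis, and they secrete hormones such as leptin and adiponectin. In obesity, macrophages gather around enlarged or dying adipocytes, and a lipid-laden kind of them carries Trem2, Gpnmb, Itgax and Mmp12. Epididymal fat lies against the epididymis and the testis, so that RNA from those organs can reach a dissected pad.

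Depth ranged from 15204124 to 36738954 counts on genes among the 6 libraries, so that a gene with 3 counts stood between 0.103 and 0.199 CPM, the count scaled to library size with the TMM method. HC mouse 3 stood apart from the other 5. The correlation of log2 CPM over 21464 genes was 0.811 to 0.854 for the pairs that held it and 0.930 to 0.968 for all others, and the first principal component, with 57.2% of the variance, gave it a score of 234 against -74.8 to -8.77. Its highest loadings were those of Ldhc, Piwil1 and Odf1, genes of the male germ line, and the lowest those of B630019A10Rik, Alb and Gm43645.

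The 12 adipocyte markers, among them Adipoq, Plin1 and Fabp4, were all detected and summed to 78029 to 119378 CPM in 5 libraries, but to 16763 CPM in HC mouse 3. The 16 macrophage markers summed to 375 to 517 CPM in CC_s, to 817 and 965 CPM in HC mice 1 and 2 and to 2955 CPM in HC mouse 3. For the 7 spermatid markers the sum was 525 CPM in that mouse and 0.127 to 9.96 CPM in the others. Nuclear-retained RNA (Malat1, Neat1, Kcnq1ot1 and Meg3) took 2.71% of its counts and 0.221% to 0.799% elsewhere. HC mouse 2 had 109 CPM of the 8 epididymal epithelium markers and the others 1.85 to 13.6 CPM. Counts of DEGs are therefore also given without HC mouse 3, as are the values and lost calls of genes that depended on it.

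**Figure D1:**
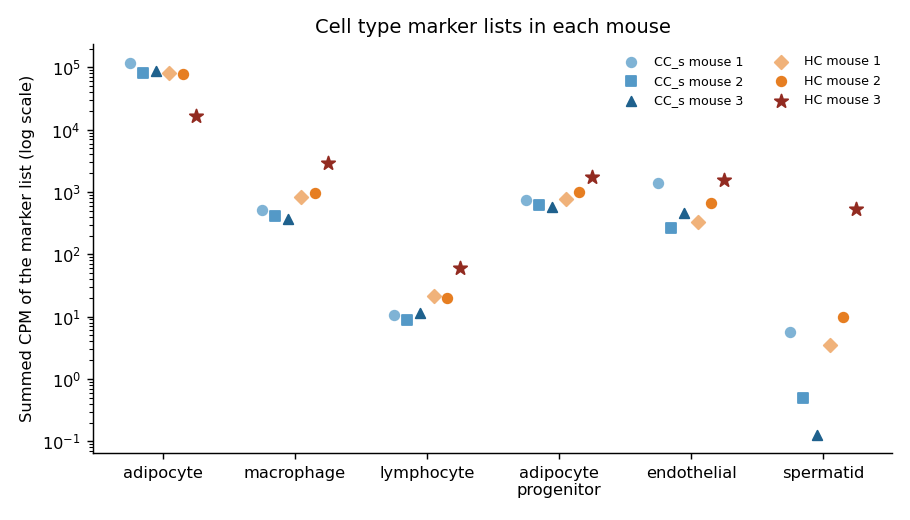
Summed CPM (y axis, log scale) of 6 cell type marker lists (x axis) in the 3 CC_s and 3 HC mice, 1 point per mouse. HC mouse 3 (star) lies lowest for adipocyte markers at 16763 CPM and highest for spermatid markers at 525 CPM, and all HC mice lie above all CC_s mice for macrophage and lymphocyte markers.

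After WL, 337 genes were upregulated and 37 were downregulated in HC, counted as differentially expressed genes (DEGs) where the log2 fold change was 1 or more in size and the nominal p lay below 0.01. The test was edgeR's quasi-likelihood test in a fit of all 20 libraries. The DEGs were 1.57% and 0.172% of the 21464 genes tested. The upregulated genes had a median level of 0.76 CPM in CC_s and 8.11 CPM in HC, not scaled to gene length, and 61 of them had no count in any CC_s mouse. The downregulated genes had a median of 55.3 CPM in CC_s and 18.8 CPM in HC. Protein-coding genes made up 301 of the upregulated and 31 of the downregulated DEGs. In 298 of the 337 every HC mouse was above every CC_s mouse, which was so for 8.01% of all tested genes, and in all 37 of the downregulated DEGs every HC mouse was below, against 5.82% of all genes. Median log2 fold changes were 3.22 and -1.65 for the DEGs (2.76 and -1.59 with genes at 0 in a whole group set to a floor of 3 counts per library), and 0.27 over all tested genes.

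No gene passed a Benjamini-Hochberg adjusted p of 0.05 in this test. The lowest adjusted p was 0.344, shared by 14 genes, and 1866 genes had a nominal p under 0.05. The likelihood ratio test of edgeR gave 85 genes past the adjusted threshold, 77 higher and 8 lower in HC, and DESeq2 gave 268, 230 higher and 38 lower. HC mouse 3 was the highest HC mouse for 65 of the 85 and for 201 of the 268, against 48.7% of all genes. Of the 268, 172 were among the DEGs counted above. Without HC mouse 3 there were 151 upregulated (0.734% of 20566 genes tested) and 37 downregulated DEGs (0.18%), of which 88 and 20 were among those found with all mice. The median of all genes then was 0.07. Other mice moved the number of DEGs as well, to 217, 244 and 160 without CC_s mouse 1, 2 or 3, to 597 without HC mouse 1 and to 445 without HC mouse 2. Of the 68 DEGs that the naming rule took, 30 missed the limits without HC mouse 3, 18, 27 and 25 without CC_s mouse 1, 2 or 3, and 4 and 3 without HC mouse 1 or 2. HC mouse 3 had the highest level of the 3 HC mice for 274 of the 337 upregulated DEGs (81.3%, against 48.7% of all genes), and at least 10 times the next HC mouse for 80 of them (23.7%, against 8.75%). HC mice 1 and 2 were both above every CC_s mouse for 301 of the 337, against 3428 of all 21464 genes (16%). The 337 were selected as DEGs on values of the same mice, so the count of 301 is no separate result.

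**Figure D2:**
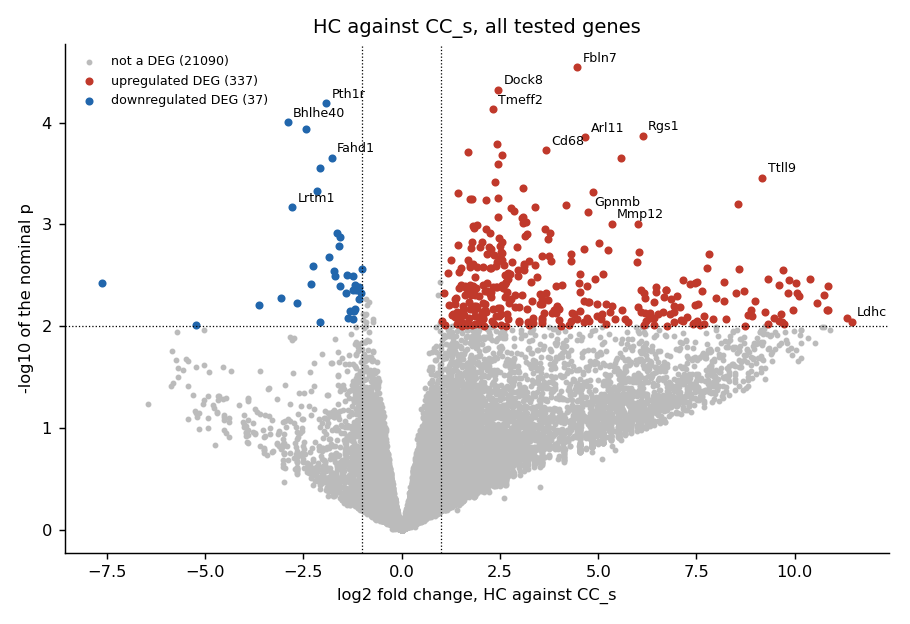
Log2 fold change of HC against CC_s (x axis) and -log10 of the nominal p (y axis) of 21464 tested genes, with dotted lines at the limits for a DEG. The 337 upregulated DEGs (red) reach further from 0 than the 37 downregulated DEGs (blue).

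The 15 upregulated genes named are those with the smallest p among protein-coding DEGs whose groups did not overlap. Lack of overlap in them was thus a condition of the choice and is no separate result. They are given one by one, ordered by what each is known to do. Fbln7, fibulin-7, a secreted glycoprotein of the extracellular matrix, measured 4.47, 4.26 and 9.91 CPM in the HC mice against 0.265, 0.41 and 0.127 CPM in the CC_s mice (log2 fold change 4.47, SE 0.79, adjusted p = 0.344 by the quasi-likelihood test of edgeR, as for all adjusted p-values below unless another tool is named). All 3 HC mice thus lay above all 3 CC_s mice, and the log2 fold change was 3.95 without HC mouse 3. Tmeff2, a transmembrane protein with follistatin-like domains, had 28.4, 30.2 and 32.6 CPM in the HC mice against 8.87, 5.04 and 4.31 CPM in the CC_s mice. The HC mice lay close together, HC mouse 3 included, well above the CC_s mice, with a log2 fold change of 2.32. Serpinf1, which encodes the secreted pigment epithelium-derived factor, measured 130, 124 and 106 CPM in the HC mice against 48.2, 41.3 and 44.1 CPM in the CC_s mice (log2 fold change 1.43 ± 0.33 (SE)), with HC mouse 3 the lowest of its group. The matrix metalloprotease Mmp11 had 6.12, 11.2 and 16.5 CPM in the HC mice against 3.04, 1.8 and 1.27 CPM in the CC_s mice (log2 fold change 2.46 ± 0.58 (SE)), again without overlap.

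Among them were 5 genes known from phagocytes and other leukocytes, each of which was highest in HC mouse 3. Cd68, a glycoprotein of the lysosomes of macrophages, measured 38.1, 36.3 and 147 CPM in the HC mice against 5.96, 5.2 and 6.09 CPM in the CC_s mice. The CC_s mice lay close together and the lowest HC mouse stood far above them (log2 fold change 3.68, SE 0.78, adjusted p = 0.344). Without HC mouse 3 the log2 fold change was 2.69, and Cd68 was still a DEG. Tyrobp, the signalling adaptor of Trem2 and related receptors, had 29.9, 29 and 72.6 CPM in the HC mice against 9.27, 5 and 8.11 CPM in the CC_s mice (log2 fold change 2.56 ± 0.55 (SE), 1.98 without HC mouse 3). Itgb2, the shared beta subunit of the leukocyte integrins, had 16.6, 21 and 63 CPM in HC and 4.1, 4.01 and 3.68 CPM in CC_s (log2 fold change 3.09 ± 0.71 (SE), 2.25 without that mouse). In both genes HC mice 1 and 2 were near each other and HC mouse 3 was the highest. Slc11a1, a metal transporter of the phagosome, measured 20.9, 15.1 and 32.8 CPM in HC and 2.78, 5.49 and 4.31 CPM in CC_s (log2 fold change 2.45 ± 0.53 (SE)). Rgs1, which shortens signalling by G-protein-coupled receptors in leukocytes, was at 5.15, 6.43 and 36.2 CPM in HC and 0, 0.164 and 0.507 CPM in CC_s. Its fitted log2 fold change of 6.13 fell to 4.67 without HC mouse 3, the widest such shift among these 5 genes.

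Dock8, an activator of Cdc42 in immune cells, measured 60.6, 51 and 32.3 CPM in HC and 11.8, 8.44 and 6.09 CPM in CC_s (log2 fold change 2.45, SE 0.46, adjusted p = 0.344), and HC mouse 3 was the lowest of its group, so that the value was 2.66 without it. Dock2, an activator of Rac in blood cells, had 8.73, 14.3 and 28 CPM in HC and 3.57, 3.2 and 2.66 CPM in CC_s (log2 fold change 2.43 ± 0.51 (SE)). Arl11, a small GTPase of the ARF-like family, had 3.3, 2.97 and 7.24 CPM in HC and 0, 0.246 and 0.254 CPM in CC_s (log2 fold change 4.67 ± 0.96 (SE)). In none of these 3 did the groups overlap. The remaining leading genes included Sh3bgrl2, at 24.9, 20.7 and 14.7 CPM in HC and 7.41, 7.13 and 4.06 CPM in CC_s (log2 fold change 1.69 ± 0.36 (SE)), and Rftn1, which encodes a protein of lipid rafts, at 8.73, 14.4 and 20.2 CPM in HC and 4.37, 2.87 and 5.32 CPM in CC_s (log2 fold change 1.79 ± 0.42 (SE)). Ttll9, of the tubulin tyrosine ligase-like family, had no count in any CC_s mouse, where 3 counts would be 0.123 to 0.199 CPM, and 0.515, 0.562 and 8.92 CPM in the HC mice. The mean of HC was at least 19.5-fold higher than the mean floor of 0.171 CPM, and that of HC mice 1 and 2 alone at least 3.16-fold.

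**Figure D3:**
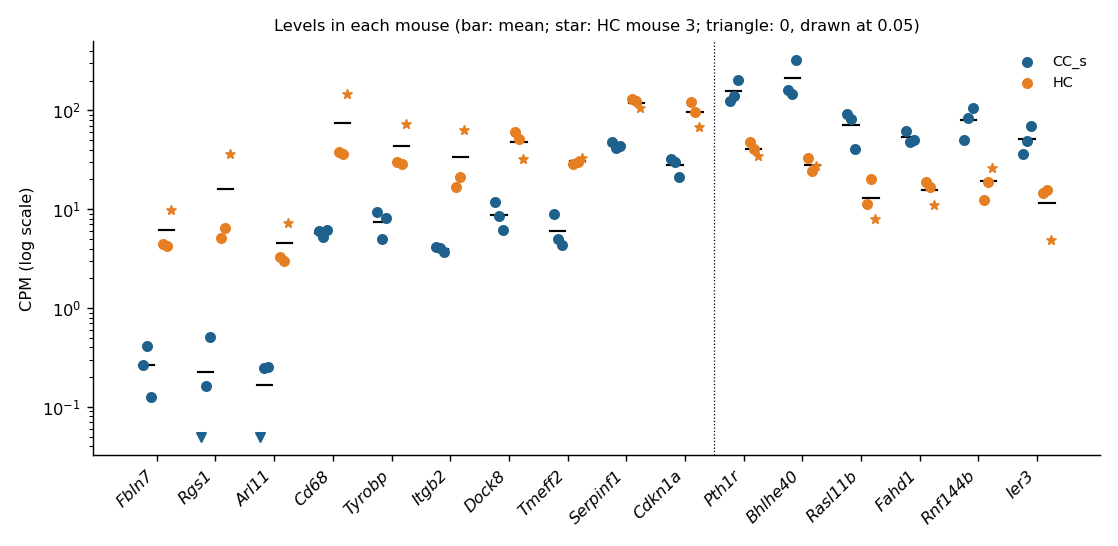
CPM (y axis, log scale) of 10 upregulated and 6 downregulated DEGs (x axis, split by the dotted line) in each of the 3 CC_s and 3 HC mice, with bars at the group means. In all 16 genes the groups do not overlap, which for the leading genes was a condition of their choice. HC mouse 3 (star) is the highest HC mouse for Rgs1 at 36.2 CPM but the lowest for Dock8 at 32.3 CPM.

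Where the genes lie is given in mm10, the build the reads were aligned to, with positions from GENCODE vM21. Fbln7 spans chr2:128862981-128897034, Dock8 chr19:24999534-25202432, Tmeff2 chr1:50900647-51187270, Rgs1 chr1:144242296-144249242 and Cd68 chr11:69664213-69666153. Of the downregulated genes described below, Pth1r spans chr9:110722085-110747145, Bhlhe40 chr6:108660629-108666925 and Rasl11b chr5:74195286-74199481. Counts are per gene, so exons are not told apart. Dock8, Dock2, Tmeff2, Arl11, Ttll9, Mmp11, Pth1r, Bhlhe40, Fahd1, Lrtm1, Phlda1 and Dennd2d overlap a gene on the opposite strand, and whether the counting used strand is not given in the sources used here, so reads of such partners cannot be told apart.

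Promoters of the upregulated genes were searched for the core of the motif of PU.1, the transcription factor of the myeloid lineage. The window ran from 250 bases before to 50 bases after the transcription start in RefSeq (GRCm38.p6, the assembly of mm10), and AGGAAGT was sought on both strands. It was found in 43 of 300 promoters (14.3%) of the upregulated DEGs, in 2 of 33 (6.06%) of the downregulated DEGs and in 1608 of 17521 (9.18%) of all tested genes. For the AP-1 letters TGANTCA the shares were 7.33%, 3.03% and 6.02%, and for the C/EBP letters TTGCNNCAA 2.67%, 0% and 1.6%. Promoters were listed for 256 of the 337 upregulated and 24 of the 37 downregulated genes. The 3 upregulated genes with the smallest p whose promoter holds AGGAAGT are shown because they are the leading DEGs with that match, which is in capitals. In Dock2 the match begins 4 bases before the transcription start, in Rftn1 44 bases before it and in Ttll9 228 bases before it.
Dock2 promoter, chr11:34783856-34784155, minus strand: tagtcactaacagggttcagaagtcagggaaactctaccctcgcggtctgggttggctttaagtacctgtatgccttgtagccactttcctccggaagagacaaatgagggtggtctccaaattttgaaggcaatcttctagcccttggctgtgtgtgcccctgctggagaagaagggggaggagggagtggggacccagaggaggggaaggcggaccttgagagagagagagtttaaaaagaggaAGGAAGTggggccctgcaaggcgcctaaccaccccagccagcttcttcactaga
Ttll9 promoter, chr2:152962235-152962534, plus strand: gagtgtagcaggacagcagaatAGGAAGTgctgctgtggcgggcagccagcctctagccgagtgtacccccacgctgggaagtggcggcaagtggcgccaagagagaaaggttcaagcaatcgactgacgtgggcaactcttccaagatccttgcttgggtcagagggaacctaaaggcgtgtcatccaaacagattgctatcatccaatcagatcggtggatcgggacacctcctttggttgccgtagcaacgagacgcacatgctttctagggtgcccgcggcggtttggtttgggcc
Rftn1 promoter, chr17:50190448-50190747, minus strand: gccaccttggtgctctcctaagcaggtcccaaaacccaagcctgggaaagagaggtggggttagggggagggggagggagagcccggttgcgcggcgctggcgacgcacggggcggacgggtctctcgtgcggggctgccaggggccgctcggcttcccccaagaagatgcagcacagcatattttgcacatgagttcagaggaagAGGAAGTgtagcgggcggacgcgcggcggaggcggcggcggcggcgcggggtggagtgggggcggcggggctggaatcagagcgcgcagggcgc
A match in these letters is a description of the window, and binding was not measured in these libraries.

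General macrophage markers were higher after WL. Of the 16 on the list, 8 were upregulated DEGs and none was downregulated, the median log2 fold change was 1.78 against 0.27 over all genes, and for 10 every HC mouse was above every CC_s mouse. Of all tested genes 1.57% were upregulated and 0.172% downregulated DEGs, and 64.1% were above 0. In 8.01% every HC mouse was above every CC_s mouse. These shares are the background for all list counts below, also for lists without a DEG. Csf1r, the receptor for the growth factor that keeps macrophages alive, rose from 10.9, 14.7 and 16.4 CPM to 38.3, 40.7 and 61.1 CPM (log2 fold change 1.74 ± 0.41 (SE)). Lyz2, lysozyme of myeloid cells, measured 266, 220 and 560 CPM in HC and 82.1, 69.8 and 68 CPM in CC_s (log2 fold change 2.25 ± 0.58 (SE)). Csf1r and Lyz2 were also DEGs when any of the 6 mice was left out. The list kept 5 DEGs and a median of 1.06 without HC mouse 3.

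Markers of lipid-associated macrophages, the kind found around dying adipocytes, had the highest median of the macrophage lists, 3.16, with 6 of 12 upregulated. Of the 12, 10 were above 0. Among the members that were no DEG, Dcstamp stood at 3.86, Spp1 at 3.77 and Cd9 at 1.10. Lgals3, Acp5 and Fabp5 were nearly flat at 0.20, -0.01 and -0.11. Gpnmb, a transmembrane glycoprotein of lipid-loaded phagocytes, had 45.6, 68.9 and 387 CPM in HC and 7.41, 7.78 and 3.36 CPM in CC_s, and Mmp12, the macrophage elastase, had 42.9, 69 and 550 CPM in HC and 10.5, 2.13 and 3.8 CPM in CC_s. Both rested strongly on HC mouse 3 in size but not in call, at 4.75 and 5.34 with it and 3.20 and 3.36 without it. Trem2, a lipid receptor, had 16.1, 24.3 and 109 CPM in HC and 5.82, 3.65 and 1.33 CPM in CC_s (log2 fold change 3.79 ± 1.06 (SE)), and Itgax, the CD11c integrin subunit, 19.3, 17.2 and 70 CPM in HC and 4.9, 4.18 and 4.82 CPM in CC_s (log2 fold change 2.94 ± 0.79 (SE)). Without HC mouse 3, Trem2 and Itgax missed the DEG limits at 2.48 and 1.97, 2 of the 12 markers were DEGs and the list's median was 1.88. None of the 6 markers of perivascular macrophages was a DEG. Their median was 0.65, and Cd163, a scavenger receptor of resident macrophages, had 21.1, 23.9 and 44 CPM in HC and 30.4, 30.9 and 27.9 CPM in CC_s.

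These lists mark a cell type that the purification does not target. Relative to CC_s, the summed CPM in HC was 3.63-fold for macrophage markers and 0.612-fold for adipocyte markers, and 2.05-fold and 0.831-fold over HC mice 1 and 2 alone. In such bulk libraries, more cells of a type and more RNA per cell cannot be told apart, nor can RNA carried along in the pulldown be told from RNA on adipocyte ribosomes.

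Receptors of phagocytes had the largest share of DEGs among the immune lists. Of 14 Fc, C-type lectin and Cd300 receptors, 9 were upregulated and all 14 were above 0, with a median of 2.23. The shares over all tested genes were 1.57% and 64.1%. Fcgr3, a low-affinity receptor for IgG, had 30.8, 33.2 and 59.3 CPM in HC and 11.6, 6.23 and 8.87 CPM in CC_s (log2 fold change 2.21 ± 0.59 (SE)), and Fcer1g, the signalling chain it shares with other Fc receptors, had 39.3, 40.9 and 67.8 CPM in HC and 16.4, 14.3 and 11.4 CPM in CC_s (log2 fold change 1.81 ± 0.55 (SE)). Cd300a, an inhibitory receptor, had 8.59, 10.7 and 31.8 CPM in HC and 3.31, 0.737 and 1.39 CPM in CC_s (log2 fold change 3.24 ± 0.91 (SE)), and Fcgr1, the high-affinity IgG receptor, 3.37, 5.3 and 9.02 CPM in HC and 1.32, 0.819 and 0.887 CPM in CC_s (log2 fold change 2.54 ± 0.76 (SE)). In all 4 the groups did not overlap. Without HC mouse 3 the list's median was 1.25, and Fcgr3 was its single DEG, at 1.84. Fcer1g, Cd300a and Fcgr1 then stood at 1.51, 2.42 and 2.10.

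Toll-like receptors sense microbial products and nucleic acids. Of the 12 genes on this list, 3 were upregulated, all of them endosomal sensors of RNA. Tlr8 had 3.02, 2.25 and 3.87 CPM in HC and 0.397, 0.41 and 0.254 CPM in CC_s (log2 fold change 3.08 ± 0.76 (SE)), Tlr13 3.09, 5.46 and 22 CPM in HC and 0.927, 1.56 and 0.38 CPM in CC_s (log2 fold change 3.38 ± 0.82 (SE)) and Tlr7 3.37, 5.38 and 7.53 CPM in HC and 1.06, 1.39 and 1.27 CPM in CC_s (log2 fold change 2.12 ± 0.68 (SE)). For Tlr8 and Tlr13 the call held without HC mouse 3, at 2.86 and 2.12, Tlr7 then missed the limits, and Ly96, the partner of Tlr4, was then a DEG at 1.31. The list's median was 1.02 with all mice and 0.84 without that mouse.

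Lysosomal genes, integrins and the phagocyte oxidase showed the same direction with fewer calls. Of 29 lysosomal genes 5 were upregulated and 27 were above 0 (median 0.78), with 16 free of overlap, all higher in HC. Over all tested genes these shares were 1.57%, 64.1% and 8.01%. Ctss, a cysteine protease of antigen-presenting cells, had 90.2, 116 and 501 CPM in HC and 28.9, 23.6 and 24.6 CPM in CC_s (log2 fold change 3.20 ± 0.83 (SE)), and Ctsk, a collagen-cleaving cathepsin, 19.2, 19.8 and 156 CPM in HC and 9, 12.4 and 9.51 CPM in CC_s (log2 fold change 2.65 ± 0.79 (SE)). Lipa, the lysosomal acid lipase, had 56.4, 75.6 and 186 CPM in HC and 28.1, 33.8 and 32.5 CPM in CC_s (log2 fold change 1.75 ± 0.57 (SE)). Without HC mouse 3, in which each of these was highest, 1 lysosomal gene was a DEG and the median was 0.57. Ctss, Ctsk and Lipa then missed the limits, at 2.00, 0.91 and 1.06. Of 11 integrin and adhesion genes Itgb2 and Itgax were upregulated (median 1.51, and 0.33 without HC mouse 3, when Itgax was no DEG). Icam1, a ligand of these integrins, was not a DEG at 9.21, 15.5 and 32.6 CPM in HC and 9.66, 2.87 and 7.99 CPM in CC_s. Of the 6 subunits of the phagocyte NADPH oxidase, Cyba was upregulated, at 68.5, 97 and 380 CPM in HC and 52.6, 33.3 and 29.7 CPM in CC_s (log2 fold change 2.24 ± 0.69 (SE)), and without HC mouse 3 none was, with Cyba at 1.10 (median 1.69, then 0.59).

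None of the 8 genes of MHC class II presentation was a DEG, although all were above 0 (median 1.31) and 6 did not overlap between the groups. Of all tested genes 64.1% were above 0, and in 8.01% every HC mouse was above every CC_s mouse. H2-Ab1 had 192, 195 and 379 CPM in HC and 118, 98 and 82.7 CPM in CC_s (log2 fold change 1.36, SE 0.60, adjusted p = 0.563) and H2-Aa 118, 165 and 315 CPM in HC and 95.4, 87.8 and 86.1 CPM in CC_s (log2 fold change 1.15, SE 0.57, adjusted p = 0.579), both chains of class II molecules. Among 25 chemokines and their receptors 4 were upregulated. Ccl5, which attracts T cells, had 5.09, 5.38 and 6.89 CPM in HC and 0.53, 1.31 and 2.03 CPM in CC_s (log2 fold change 2.16 ± 0.59 (SE)) and was a DEG without HC mouse 3 as well. Ccl6 and Ccl9, made by myeloid cells, had log2 fold changes of 1.71 and 2.40, and Ccr7, a homing receptor of lymphocytes and dendritic cells, 3.76. These 3 missed the limits without HC mouse 3, at 1.01, 1.04 and 2.31.

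Lymphocyte genes had few counts but leaned higher in HC. All 14 lymphocyte markers were above 0 (median 1.72), against 64.1% of all tested genes, and 3 were upregulated DEGs, against 1.57%. Cd3g, a chain of the T cell receptor complex, had 1.99, 1.2 and 5.45 CPM in HC and 0.53, 0.164 and 0.507 CPM in CC_s (log2 fold change 2.85 ± 0.70 (SE)). Lck, the kinase of that receptor, had 4.05, 3.73 and 9.72 CPM in HC and 1.59, 1.23 and 1.14 CPM in CC_s (log2 fold change 2.14 ± 0.70 (SE)), and Gzma, a protease of cytotoxic cells, 1.1, 0.964 and 2.68 CPM in HC and 0.132, 0.0819 and 0.38 CPM in CC_s (log2 fold change 2.98 ± 0.96 (SE)). Cd3g alone of the list was a DEG without HC mouse 3, at 2.00, when Lck and Gzma stood at 1.55 and 2.37 and the median was 1.09. Of 83 tested immunoglobulin and T cell receptor genes 8 were upregulated. They share sequence with close relatives, so their counts are uncertain. The constant segment Ighg2c, named after its values were seen, stood at 0.132, 0.0819 and 0.38 CPM in CC_s and at 3.02, 9.32 and 15.5 CPM in HC.

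Of 42 matrix proteases and inhibitors 5 were upregulated (median 0.66), namely Mmp11, Mmp12, Mmp2, Mmp23 and Adam8. Mmp2, a gelatinase made by stromal cells, had 23, 25 and 37.7 CPM in HC and 4.63, 9.34 and 10 CPM in CC_s (log2 fold change 1.83 ± 0.59 (SE)), and Adam8, a membrane protease of leukocytes, 4.5, 10.5 and 46.1 CPM in HC and 1.32, 1.52 and 1.58 CPM in CC_s (log2 fold change 3.78 ± 0.98 (SE)). Mmp11 and Mmp12 were the members that remained DEGs without HC mouse 3 (median then 0.36), when Mmp2 stood at 1.58 and Adam8 at 2.33. None of 40 collagen genes was a DEG, their median was 0.64, and 0.20 without HC mouse 3, and Col1a2, a chain of fibrillar collagen, had 179, 243 and 344 CPM in HC and 149, 182 and 158 CPM in CC_s. Of 8 markers of adipocyte progenitors Pdgfra was a DEG, at 19.8, 30 and 59.9 CPM in HC and 7.94, 15.5 and 12.2 CPM in CC_s (log2 fold change 1.62 ± 0.50 (SE), 1.06 without HC mouse 3 and then no DEG). None of the 10 endothelial, 6 smooth muscle and pericyte, 7 mesothelial or 8 epididymal epithelium markers was a DEG, with medians of 0.35, 0.67, 0.34 and 1.52.

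The lists of the adipocyte's own metabolism held almost no DEGs. Of all tested genes 1.57% were upregulated and 0.172% downregulated, and at such shares short lists hold few calls. All 14 genes of de novo lipogenesis had a log2 fold change below 0, from -1.54 to -0.22 with a median of -0.84, and none was a DEG. Over all tested genes 64.1% were above 0. Fasn, fatty acid synthase, had 1556, 1044 and 116 CPM in HC and 460, 2422 and 3015 CPM in CC_s (log2 fold change -1.12, SE 0.88, adjusted p = 0.735), and Acly, which supplies cytosolic acetyl-CoA, 601, 402 and 72.6 CPM in HC and 152, 811 and 830 CPM in CC_s (log2 fold change -0.74, SE 0.81, adjusted p = 0.822). For both, CC_s mouse 1 lay below HC mice 1 and 2, so that the groups overlapped. Acacb, the mitochondrial acetyl-CoA carboxylase, had 54.3, 85.9 and 64.5 CPM in HC and 72.3, 194 and 113 CPM in CC_s (log2 fold change -0.89 ± 0.53 (SE)), and Scd1, the stearoyl-CoA desaturase, 21626, 16660 and 10918 CPM in HC and 18828, 23321 and 24585 CPM in CC_s (log2 fold change -0.44 ± 0.67 (SE)). The median of the list was -0.60 without HC mouse 3. In H against C it was -1.84.

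Triglyceride synthesis (12 genes, median -0.25), lipolysis and lipid droplet genes (13, median -0.14), fatty acid uptake and caveolae (11, median -0.20), and insulin signalling and glucose uptake (14, median -0.34) held no DEG. Without HC mouse 3 these medians were 0.05, 0.05, -0.18 and -0.26, against 0.07 over all genes. In that fit 1 lipolysis and lipid droplet gene was an upregulated DEG. Gpam, which starts glycerolipid synthesis, had 17.9, 16.7 and 3.07 CPM in HC and 16.5, 26.6 and 31.1 CPM in CC_s (log2 fold change -0.98, SE 0.58, adjusted p = 0.624). Pck1, the enzyme that supplies glycerol-3-phosphate, had 1959, 1442 and 150 CPM in HC and 724, 613 and 919 CPM in CC_s, 2 HC mice above and 1 below the CC_s range. Plin1, the coat protein of the lipid droplet, had 357, 391 and 99.5 CPM in HC and 337, 467 and 556 CPM in CC_s (log2 fold change -0.68 ± 0.56 (SE)), and Slc2a4, the insulin-regulated glucose transporter GLUT4, 130, 137 and 92.8 CPM in HC and 115, 172 and 153 CPM in CC_s (log2 fold change -0.29 ± 0.39 (SE)). HC mouse 3 was the lowest HC mouse for each of these 4 genes.

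Of 15 adipokines, Angptl4, an inhibitor of lipoprotein lipase, was upregulated, from 156, 103 and 111 CPM to 201, 344 and 352 CPM (log2 fold change 1.28 ± 0.42 (SE)). It was no DEG without HC mouse 3 (1.14), when the adipokine list held 1 other upregulated and 1 downregulated DEG. Leptin (Lep) had 3809, 2542 and 606 CPM in HC and 1655, 2121 and 2430 CPM in CC_s (log2 fold change 0.16, SE 0.64, adjusted p = 0.968) and adiponectin (Adipoq) 7645, 3860 and 493 CPM in HC and 2117, 4012 and 3822 CPM in CC_s (log2 fold change 0.27, SE 0.85, adjusted p = 0.958). For both hormones HC mouse 1 was the highest and HC mouse 3 the lowest of all 6 mice. Cfd, adipsin, had 5404, 3242 and 1666 CPM in HC and 3118, 8668 and 4601 CPM in CC_s (log2 fold change -0.67 ± 0.62 (SE)). Among 12 adipogenic transcription factors 11 were below 0 (median -0.64), with no DEG. Without HC mouse 3 the median was -0.48, and 1 of them was a downregulated DEG. Pparg, the master regulator of adipocytes, had 450, 254 and 59.6 CPM in HC and 327, 434 and 451 CPM in CC_s (log2 fold change -0.67, SE 0.59, adjusted p = 0.773), and Cebpa 576, 507 and 76 CPM in HC and 134, 455 and 532 CPM in CC_s (log2 fold change 0.05 ± 0.78 (SE)).

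Lists of oxidative and other metabolic genes held few DEGs. Those of fatty acid oxidation (15 genes, median -0.03), the tricarboxylic acid cycle (14, -0.30), branched-chain amino acid breakdown (15, -0.40), thermogenic genes (9, 0.61) and cholesterol synthesis (16, -0.10) held no DEG, and neither did the 79 cytosolic ribosomal proteins (-0.24). In that order, the medians without HC mouse 3 were 0.29, 0.10, 0, 1.03, 0.06 and 0. Of 91 nuclear-encoded respiratory chain subunits (median -0.19), Cox6b2, the testis form of a cytochrome oxidase subunit, was a DEG at 2.65, but not without HC mouse 3 (1.35). The list's median was then 0.28. Of 42 cytochrome P450 genes, Cyp2r1, a vitamin D 25-hydroxylase, was upregulated at 3.85, 1.69 and 2.78 CPM in HC and 0.53, 0.573 and 0.634 CPM in CC_s (log2 fold change 2.25 ± 0.64 (SE)), and Cyp2f2 was downregulated at 1.72, 2.89 and 0.694 CPM in HC and 5.36, 18 and 10.5 CPM in CC_s (log2 fold change -2.67 ± 0.85 (SE)). Cyp2r1 was still a DEG without HC mouse 3, and Cyp2f2 missed the limits at -2.30. Cyp2e1, an ethanol- and lipid-oxidizing member, had 896, 620 and 148 CPM in HC and 648, 2095 and 1240 CPM in CC_s and was no DEG.

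**Figure D4:**
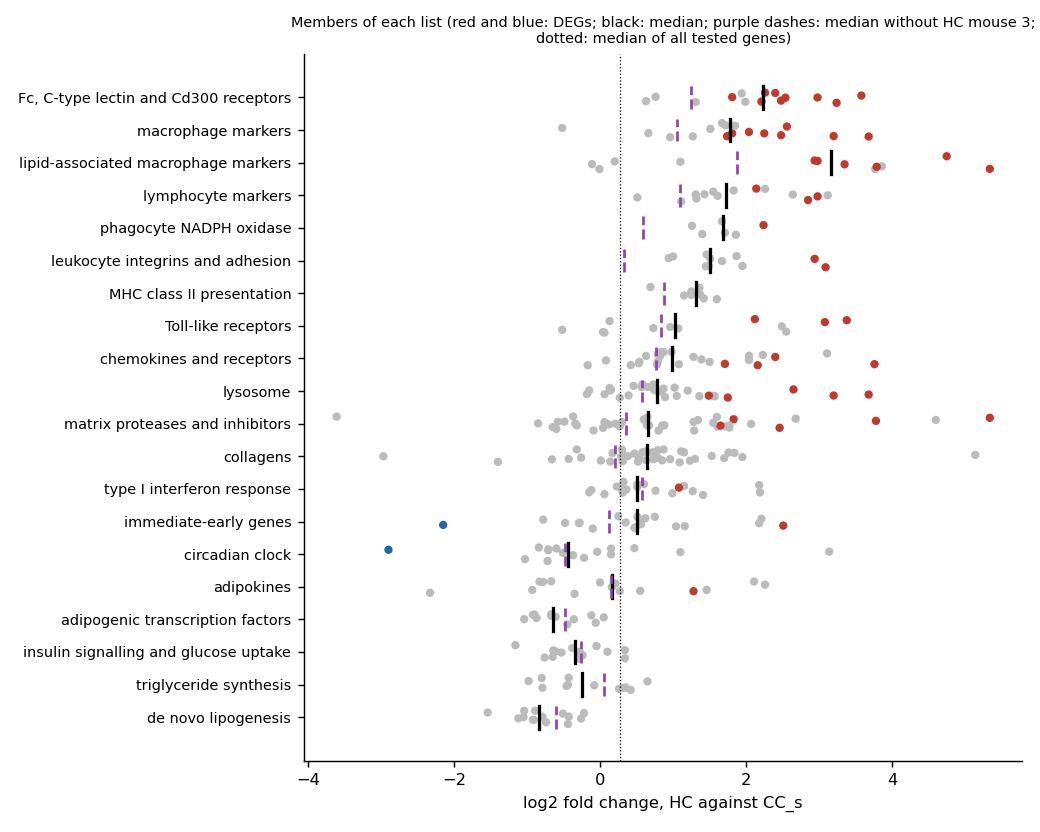
Log2 fold change of HC against CC_s (x axis) of the members of 20 gene lists (y axis), 1 point per gene, with each list's median with all mice (black) and without HC mouse 3 (purple dashes). Medians of the phagocyte lists lie above the 0.27 of all tested genes (dotted line), up to 3.16, and that of de novo lipogenesis lies below it at -0.84.

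The downregulated genes were of other kinds. Pth1r, the receptor for parathyroid hormone and its related peptide, had 47.9, 40.6 and 34.9 CPM in HC and 123, 141 and 205 CPM in CC_s (log2 fold change -1.92, SE 0.37, adjusted p = 0.344). Every HC mouse lay far below the lowest CC_s mouse, and the log2 fold change was -1.83 without HC mouse 3. Bhlhe40, a transcriptional repressor linked to the clock, had 33, 24.1 and 27.2 CPM in HC and 161, 148 and 322 CPM in CC_s (log2 fold change -2.90, SE 0.58, adjusted p = 0.344), with the HC mice close together. Rasl11b, a small GTPase, had 11.2, 20.2 and 7.93 CPM in HC and 91.9, 81.5 and 40.3 CPM in CC_s (log2 fold change -2.44 ± 0.49 (SE)). Fahd1, a mitochondrial enzyme that cleaves acylpyruvates, had 18.7, 16.8 and 11 CPM in HC and 61.4, 47.7 and 50.6 CPM in CC_s (log2 fold change -1.78 ± 0.38 (SE)), and Rnf144b, a ubiquitin ligase, 12.4, 18.9 and 26 CPM in HC and 50.2, 84.5 and 105 CPM in CC_s (log2 fold change -2.07 ± 0.45 (SE)). None of these 5 depended on HC mouse 3 for its call.

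Ier3, an early-response gene, measured 14.5, 15.7 and 4.86 CPM in HC and 36.3, 48.9 and 70.1 CPM in CC_s (log2 fold change -2.15 ± 0.50 (SE)), and Lrtm1, a leucine-rich repeat membrane protein, 1.51, 1.29 and 0.397 CPM in HC and 2.65, 10.8 and 8.62 CPM in CC_s (log2 fold change -2.78 ± 0.67 (SE)). Phlda1 had 9.66, 23 and 20.4 CPM in HC and 50.6, 76.5 and 38.7 CPM in CC_s (log2 fold change -1.65 ± 0.43 (SE)), and Cited2, a partner of the co-activators CBP and p300, 28.7, 30.2 and 15.6 CPM in HC and 72.4, 109 and 41.3 CPM in CC_s (log2 fold change -1.58 ± 0.41 (SE)). Dennd2d, an activator of Rab GTPases, had 43, 40.8 and 19.3 CPM in HC and 66.3, 134 and 112 CPM in CC_s (log2 fold change -1.59 ± 0.43 (SE)). All 10 of these leading genes were downregulated DEGs without HC mouse 3 too.

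Further downregulated DEGs, named here after their values were seen, can be set out by role. Signalling at the cell surface was represented by Adcyap1r1, the receptor for the peptide PACAP (11.7, 15.3 and 24.5 CPM in HC and 33.4, 69.5 and 67.8 CPM in CC_s). Inside the cell were Rangap1, which acts on the nuclear transport GTPase Ran (53.9, 160 and 44.2 CPM in HC and 669, 370 and 196 CPM in CC_s), and Tob1, an antiproliferative protein (134, 140 and 61.7 CPM in HC and 376, 341 and 364 CPM in CC_s). Trib1, a pseudokinase that directs proteins to degradation (28.2, 33.2 and 38.4 CPM in HC and 98.1, 57.3 and 78.3 CPM in CC_s), and Cdkn1c, an imprinted inhibitor of the cell cycle (26.3, 25.9 and 25.8 CPM in HC and 45.7, 62.4 and 76.7 CPM in CC_s), also fell. Slc25a29 is a mitochondrial carrier of basic amino acids (5.15, 5.62 and 6.15 CPM in HC and 15, 12.7 and 12.4 CPM in CC_s), and Lig4 the ligase of DNA end joining (11.9, 11.1 and 7.44 CPM in HC and 26.7, 24 and 19.1 CPM in CC_s). In each of these the highest HC mouse lay below the lowest CC_s mouse. The others with a protein product included Dtna, Trp53bp2, Nsmce3, Zfp503, Chml, Ing2, Rhou, Sept10 and Pacsin3, with log2 fold changes from -1.86 for Dtna to -1.02 for Trp53bp2. In the fit without HC mouse 3, Rangap1, Tob1, Cdkn1c and Lig4 missed the limits, at -1.95, -1.40, -1.25 and -1.03, and so did Nsmce3, Zfp503, Chml, Ing2, Rhou and Pacsin3. Gabrd, a GABA receptor subunit, had no count in any HC mouse and at most 0.265 CPM in CC_s, too near the floor for a fold change.

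The clock, early-response and cell-cycle lists held 1, 2 and 3 DEGs. Of 16 clock genes Bhlhe40 was the DEG, and the list's median was -0.44 (-0.48 without HC mouse 3). Of 20 immediate-early genes Atf3, a stress-induced repressor, was upregulated at 10.7, 18.9 and 53.6 CPM in HC and 4.24, 5.16 and 5.2 CPM in CC_s (log2 fold change 2.51 ± 0.81 (SE)) and Ier3 downregulated, with a median of 0.50. Atf3 was no DEG without HC mouse 3 (1.60). Of 10 cell-cycle inhibitors and p53 targets, Cdkn1a, the inhibitor p21, rose at 122, 96.1 and 67.5 CPM in HC and 31.9, 30.1 and 21.3 CPM in CC_s (log2 fold change 1.78 ± 0.47 (SE)), and HC mouse 3 was the lowest of its group. Gdf15, a stress hormone, had 1.31, 3.29 and 8.72 CPM in HC and 0.794, 0.164 and 0.127 CPM in CC_s (log2 fold change 3.62 ± 1.2 (SE)), and Cdkn1c was downregulated. Cdkn1a was a DEG in each fit with 1 mouse left out, and Gdf15 (2.67) and Cdkn1c (-1.25) were not DEGs without HC mouse 3.

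Of the 19 type I interferon genes Xaf1 was upregulated, at 17.6, 11.2 and 18.8 CPM in HC and 7.41, 6.64 and 8.49 CPM in CC_s (log2 fold change 1.08 ± 0.33 (SE)), with a list median of 0.51, but it was no DEG without HC mouse 3 (0.93). Of 13 acute phase and complement genes it was Serping1, the C1 inhibitor, at 194, 129 and 156 CPM in HC and 40.8, 52.2 and 43.5 CPM in CC_s (log2 fold change 1.81 ± 0.51 (SE)). Dhrs9, a retinol dehydrogenase, was the DEG among 11 genes of retinoid metabolism, at 0.618, 1.37 and 6.64 CPM in HC and 0.132, 0 and 0 CPM in CC_s (log2 fold change 6.0 ± 1.51 (SE)), and Rgs1 the DEG among 18 regulators of G-protein signalling. For Dhrs9 the fitted value was 4.47 without HC mouse 3 and 8.98 without CC_s mouse 1, the one CC_s mouse with a count, and it was a DEG in both fits. No DEG was found among 14 cytokine and NF-kB genes, 15 genes of the ER and integrated stress response, 10 glucocorticoid targets, 15 proliferation genes, 12 TGF-beta and activin genes, 9 IGF genes or 24 chromatin modifiers, with medians from -0.44 for the glucocorticoid targets to 0.69 for proliferation genes. The same held for 14 adrenergic and metabolite receptors (median -0.31, and -0.16 without HC mouse 3), and for the neutrophil (3 tested), erythrocyte (5), nuclear-retained (4) and mitochondrially encoded (13) lists. Without HC mouse 3, 1 gene of the ER and integrated stress response was an upregulated DEG, and the median of the proliferation genes was -0.13. The DEG among 12 genes of iron handling was Slc11a1, and that among 10 imprinted growth genes was Cdkn1c.

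Genes of the male germ line had the highest median of all lists, with and without HC mouse 3. The size of that median and the DEG calls rested on HC mouse 3. Of 7 spermatid markers 5 were upregulated DEGs with all mice and none without HC mouse 3. Ldhc, the lactate dehydrogenase of sperm, had no count in any CC_s mouse or in HC mouse 1, 0.643 CPM in HC mouse 2 and 48.2 CPM in HC mouse 3. Akap4, of the sperm tail, had no count in CC_s and 0.275, 0.321 and 17.8 CPM in HC. Tnp1, a transition protein of spermatid chromatin, had 0.378, 0.241 and 46.5 CPM in HC and 0.132, 0 and 0 CPM in CC_s, and Odf1, of the sperm tail fibres, 0.206, 2.41 and 74.2 CPM in HC and 0.265, 0.0819 and 0 CPM in CC_s. The list's median was 7.78, 6.58 with the genes at 0 set to their bound, and 2.87 without HC mouse 3, when no member passed the limits. Cox6b2, named above, had 2.54, 2.41 and 13.3 CPM in HC and 0.662, 1.56 and 0.634 CPM in CC_s (1.35 on the log2 scale without HC mouse 3), and Ttll9, described above, was a DEG without HC mouse 3 on levels of 0.515 and 0.562 CPM. How much such RNA contributed to other genes was not tested.

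Many of these differences were also present in the obese state, whose control group was uneven. Adipocyte markers summed to 24658, 23230 and 133966 CPM in C mice 1, 2 and 3 and to 50671, 37876 and 61214 CPM in the H mice. Nuclear-retained RNA took 3.24%, 4.36% and 0.374% of the counts in the C mice and 0.485% to 0.579% in the H mice. How far this shaped the effects in H was not tested. In H against C, 766 genes were upregulated (3.57% of those tested) and 626 downregulated (2.92%). Of the 337 genes upregulated after WL, 107 were upregulated in H (31.8% of the 337 and 14.0% of the 766), and 66.8% had a log2 fold change above 0 in H, against 42.8% of all genes. Of the 37 downregulated genes, 17 were downregulated in H (45.9% of the 37 and 2.72% of the 626), and all 37 were below 0, against 56.0% of all genes. Median log2 fold changes in H were 1.07 and -1.09 for the genes that were up- and downregulated in HC, and -0.15 over all genes.

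Of the 25 leading genes, 20 were DEGs of the same direction in H, and Ttll9, Rasl11b, Lrtm1, Phlda1 and Cited2 were not. For some the values were close, and on the log2 scale Cd68 changed by 3.88 in H and 3.68 in HC, Dock8 2.29 and 2.45, Tmeff2 2.36 and 2.32, Pth1r -2.30 and -1.92, and Bhlhe40 -2.47 and -2.90. The interaction test of the difference gave adjusted p-values from 0.866 to 1 for these 5 genes, so a difference was not shown. Others lay further apart. Fbln7 had 2.83 in H and 4.47 in HC, Serpinf1 2.63 and 1.43, Rasl11b -0.97 and -2.44, Phlda1 -0.17 and -1.65, and Cited2 -0.36 and -1.58. In H, Ttll9 had -0.72. Over the 25 genes the adjusted p of the difference ran from 0.325 to 1. Cdkn1a had 4.26 in H and 1.78 in HC (adjusted p = 0.325 for the difference), and Dennd2d -4.09 and -1.59 (adjusted p = 0.325). Cd3g had 0.01 in H and 2.85 in HC (adjusted p = 0.325). Over the whole table, the difference between the effects in H and in HC passed an adjusted p of 0.05 for 0 genes in the quasi-likelihood test of edgeR, for 460 in its likelihood ratio test and for 407 in DESeq2, and 2538 genes had a nominal p below 0.05.

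Some genes went the opposite way. Of the 337 upregulated genes 1 was a downregulated DEG in H, Fads6 of the fatty acid desaturase family, with log2 fold changes of 2.36 in HC and -2.34 in H (adjusted p = 0.325 for the difference), and it was not a DEG in HC without HC mouse 3 (1.16). The spermatid markers had a median of 7.78 in HC and -4.78 in H, and their summed level averaged 50.8 CPM in C and 2.87 CPM in H. By mouse, the sums were 125, 23.4 and 4.48 CPM in C and 0.76, 1.52 and 6.33 CPM in H. The higher mean of C thus came mainly from C mouse 1, and C mouse 3 lay below H mouse 3.

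**Figure D5:**
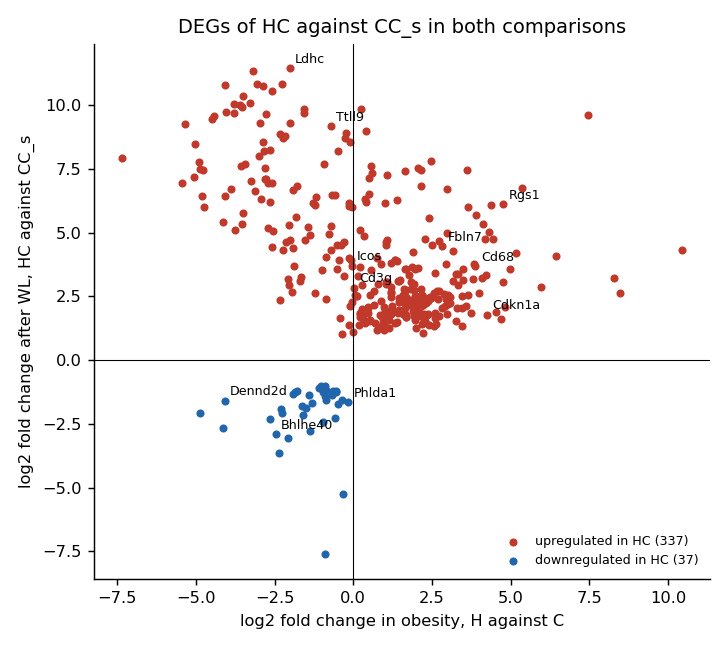
Log2 fold change in H against C (x axis) and in HC against CC_s (y axis) of the 374 DEGs of HC, 1 point per gene. All 37 downregulated genes (blue) lie left of 0, and the upregulated genes (red) spread on both sides, with 66.8% to the right.

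The DEGs that did not depend on any single mouse numbered 44 upregulated and 10 downregulated. The 15 upregulated genes of the leading set were all among them, as were Csf1r, Tlr8, Tlr13, Gpnmb, Mmp12, Dhrs9, Lyz2, Cd3g and Cdkn1a. Several further genes of these 44, named after their values were seen, lie outside the lists. Ucp2, a mitochondrial carrier, had 229, 138 and 87.2 CPM in HC and 21.7, 54 and 49.8 CPM in CC_s, and HC mouse 3 was the lowest of its group. Trdn, triadin, a protein of the calcium release complex of muscle, had 25.5, 25.4 and 7.53 CPM in HC and 2.25, 0.246 and 0.761 CPM in CC_s. Fgd6, an activator of Cdc42, had 6.77, 7.87 and 7.68 CPM in HC and 1.99, 2.05 and 1.9 CPM in CC_s, Csf2ra, a chain of the GM-CSF receptor, 32.2, 19.4 and 20.6 CPM in HC and 2.65, 10.7 and 7.86 CPM in CC_s, and Hpgds, a prostaglandin D synthase, 6.63, 8.91 and 32.9 CPM in HC and 1.72, 1.31 and 2.79 CPM in CC_s. Trdn and Ucp2 were thus higher in HC mice 1 and 2 than in HC mouse 3. In that mouse the summed macrophage markers were highest and the summed adipocyte markers lowest. What set the levels of Trdn and Ucp2 was not tested. Each of the 3 CC_s mice also mattered: without CC_s mouse 1, 2 or 3, 114, 121 and 97 of the 337 upregulated DEGs remained, and without HC mouse 1 or 2, 292 and 290.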

How the data were processed

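TRAP-seq libraries of epiAT from 20 mice in 8 groups were analysed, and the labels gave every library its group. The authors trimmed reads with Trim Galore 0.6.6, aligned them to mm10 with HISAT2 2.2.1, counted them per gene with featureCounts (Subread 2.0.1) and deposited the raw counts as whole numbers. The annotation, strand setting and handling of read pairs are not given in the sources used here. Even values made up 80% to 88% of the nonzero counts in the 6 compared libraries. Whether both reads of a pair were counted was not tested. If they were, 3 counts stand for fewer than 3 fragments, and fold bounds set at that floor are too high. Symbols and positions came from GENCODE vM21, and symbols missing there came from a second list of gene names. With both sources, 45143 of the 46078 genes (98.0%) had a symbol. Depth was 15204124 to 36738954 counts in the 6 compared libraries, and limits at 3 counts cover counting error only. Library preparation was by oligo-dT priming and template switching.

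From the deposited counts, a quasi-likelihood fit of all 20 libraries together was made in edgeR 4.0.16 (R 4.3.3), after filterByExpr and TMM normalization. A DEG needed a log2 fold change of 1 or more in size and a nominal p below 0.01, as in the authors' methods. Mice are separate animals. SE values were derived from the F statistic. The difference between H and HC was tested as an interaction. DESeq2 1.42.0, RLE normalization, no filter, the likelihood ratio test, fits of the 6 or 12 nearest libraries, a replicate block, halved counts and leaving out each mouse were the alternatives. The procedure was tested on simulated counts with a common mean profile and with changes placed in well-counted genes. Changes in scarce genes and a library like HC mouse 3 were not simulated.

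The comparison and the gene lists were chosen with earlier results of these data known. Named genes were the 15 up- and 10 downregulated protein-coding DEGs with the smallest p among those without overlap, up to 4 DEGs per list (or the 2 most abundant members of a list without a DEG), 17 adipocyte and immune genes, and the highest and lowest loadings. Promoter sequences are from RefSeq.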

Additional observations from a re-analysis of the deposited data

Results flagged for a closer look

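Cox6b2, the testis form of a cytochrome oxidase subunit, was higher in every HC mouse than in every CC_s mouse (log2 fold change 2.65 in HC) and lower in every H mouse than in every C mouse (log2 fold change -1.23 in H), which brought it here among the named genes. The difference of 3.88 between the 2 effects had an adjusted p of 0.325 in edgeR's quasi-likelihood test, and without HC mouse 3 the value in HC was 1.35.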

How the results depend on the processing

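Against the 374 DEGs reported (337 up, 37 down), no filter on low counts gave 1764 (1702 and 62), the likelihood ratio test 972 (910 and 62), DESeq2 727 (649 and 78) and the 6 compared libraries alone 243 (196 and 47). With the adjusted p as the cut-off there were 0 in both directions. Leaving out 1 mouse at a time gave 160 to 597 DEGs, 132 to 567 up and 26 to 37 down. RLE normalization, halved counts and the 12 short-arm libraries kept each count within 1.5 times. Genes with an adjusted p under 0.05 numbered 0 in the main test, 1077 without the filter, 85 by the likelihood ratio test and 268 by DESeq2. For the difference between H and HC these were 0, 1403, 460 and 407. DESeq2 left the adjusted p of 2514 genes empty. With the replicate block there were 94 DEGs (76 and 18), of which 58 and 14 were among those reported. Deviations of same-numbered mice from their group means had correlations of -0.277, 0.0593 and -0.238. With 3 mice a group and HC mouse 3 far from the others, these values cannot tell whether same-numbered mice were processed together. No named gene reversed a called direction under these alternatives, and of 68 named DEGs 30 missed the limits without HC mouse 3 and 3 to 27 without another mouse. The causes were not tested. Depth limits the scarce genes: 61 upregulated DEGs had no count in CC_s.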
